A study of Mus musculus with 18 samples.

Results

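The 10 genes described here, of 37620 gene IDs counted in the series, are Nlrp6, Hecw1, Esx1, C2cd4a, Serpinb9b, Tfec, Adrb3, Sema3e, Galnt15 and Ret. They were chosen because they were near silent in WT or K9M mice and high in K36M mice in at least 1 tissue. They were selected on their measured levels, so the K36M difference in the tissue where a gene was chosen is given as a description without a test. That tissue was bone marrow for Nlrp6, Hecw1, Esx1 and C2cd4a, intestine for Serpinb9b, Tfec, Adrb3, Sema3e and Ret, and testes for Galnt15. The question asked of the other tissues was whether the same genes came on there too.

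The series measured polyadenylated RNA from mice with an inducible histone lysine-to-methionine mutation. K36M mice carried the mutation at lysine 36, K9M mice at lysine 9, and the WT mice are labelled wildtype with no further detail. All were C57B6/129 hybrids, male and female, aged 6 to 8 weeks, and all received doxycycline at 2 mg/ml in drinking water. The promoter that drives the transgene and the days of induction are not given in the sources used here. RNA came from 3 sources in each genotype, with 2 mice in each of the 9 groups: sorted Lin-, cKit+ cells of bone marrow (blood stem and progenitor cells), dissociated cells of the intestine, and testes. The same 6 animals, thus males, gave intestine and testes, whereas marrow was taken from 6 other animals. The sex of single marrow mice was not used here. Each mouse is named by genotype and label number, as in K36M.1553. The transgene was not counted separately, so the genotype labels could not be checked against it. Counts in genes ranged from 13396303 to 21417915 per library. Kit, the receptor used in the sort, was among 6 stem and progenitor markers whose summed level was 557 to 593 CPM in K36M, 1149 to 1256 in K9M and 906 to 938 in WT marrow. Enterocyte markers summed to 14072 to 14674 CPM in K36M, 25011 to 27160 in K9M and 25002 to 25736 in WT intestine. Spermatid and spermatocyte markers summed to 20972 to 29789 CPM in K36M, 11990 to 13026 in K9M and 11796 to 12095 in WT testes. The same markers summed to 212 CPM in the intestine library of WT.1476, against 11.2 in that of WT.1477.

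Methylation of histone H3 at lysine 36 is laid down over transcribed genes and, in its dimethyl form, over wide stretches between genes. Methylation at lysine 9 is known for silent chromatin and repeats. A histone with methionine in place of the lysine is known to inhibit the enzymes that methylate that residue, also on the cell's own histones. Lysine 36 methylation is known to hinder the Polycomb enzyme that methylates lysine 27, a mark that keeps many developmental and tissue-restricted genes off. The 10 genes belong to no single pathway. They include a sensor of the innate immune system, a secreted guidance cue, a pair of cell-surface receptors, transcription factors of separate families, and enzymes or enzyme inhibitors.

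Promoters of 7 of the 10 genes were matched by symbol in the RefSeq table for GRCm38.p6. Those of Hecw1, Adrb3 and Ret were not matched. The 250 bases before the start site are shown for 5 genes that the comparisons between tissues turn on, read 5′ to 3′ on the gene's strand, with each CG dinucleotide in capitals. These coordinates belong to GRCm38.p6 and not to mm9, on which the reads were counted. The intervals are chr7:140920652-140920901 on the plus strand for Nlrp6, chrX:137120327-137120576 on the minus strand for Esx1, chr13:33027164-33027413 on the plus strand for Serpinb9b, chr6:16898442-16898691 on the minus strand for Tfec and chr5:14025026-14025275 on the plus strand for Sema3e.
Nlrp6: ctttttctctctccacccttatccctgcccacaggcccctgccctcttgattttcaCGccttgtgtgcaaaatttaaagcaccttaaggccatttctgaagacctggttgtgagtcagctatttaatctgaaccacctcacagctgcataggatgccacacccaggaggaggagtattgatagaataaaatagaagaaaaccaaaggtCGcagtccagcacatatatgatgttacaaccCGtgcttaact
Esx1: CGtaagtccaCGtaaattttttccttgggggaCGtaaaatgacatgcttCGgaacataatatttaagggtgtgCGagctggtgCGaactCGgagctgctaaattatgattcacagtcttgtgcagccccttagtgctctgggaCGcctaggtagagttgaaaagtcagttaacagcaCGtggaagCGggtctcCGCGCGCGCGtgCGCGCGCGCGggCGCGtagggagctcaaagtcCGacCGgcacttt
Serpinb9b: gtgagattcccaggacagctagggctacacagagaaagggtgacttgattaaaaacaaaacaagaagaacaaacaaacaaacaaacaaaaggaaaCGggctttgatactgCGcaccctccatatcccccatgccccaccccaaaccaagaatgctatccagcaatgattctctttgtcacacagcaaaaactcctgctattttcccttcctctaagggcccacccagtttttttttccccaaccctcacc
Tfec: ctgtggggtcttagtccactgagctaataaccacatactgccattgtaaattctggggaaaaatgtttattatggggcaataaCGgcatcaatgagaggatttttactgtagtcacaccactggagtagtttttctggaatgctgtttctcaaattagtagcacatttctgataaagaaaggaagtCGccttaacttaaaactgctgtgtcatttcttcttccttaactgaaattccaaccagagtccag
Sema3e: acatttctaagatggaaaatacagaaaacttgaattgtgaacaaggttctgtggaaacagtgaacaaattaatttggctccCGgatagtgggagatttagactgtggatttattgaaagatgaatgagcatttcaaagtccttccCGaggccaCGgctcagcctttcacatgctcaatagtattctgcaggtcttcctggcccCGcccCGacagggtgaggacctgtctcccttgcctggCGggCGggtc

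CG reads the same on both strands, so 1 count covers both. The Esx1 promoter held 24 CG dinucleotides, many of them in the run of CG repeats near its 3′ end, and 12.0% of all 32851 promoters of the table held as many. Sema3e held 7, Nlrp6 held 3, and Tfec and Serpinb9b held 2 each. C2cd4a held 9 and Galnt15 held 8. The median over all promoters was 6, with quartiles at 2 and 16. The shares of promoters with at least as many were 40.3% for C2cd4a, 43.0% for Galnt15, 46.3% for Sema3e, 71.0% for Nlrp6 and 81.2% for Tfec and Serpinb9b. The motif TATAAA, searched on both strands, was found in the C2cd4a promoter and in none of the 6 others, against 12.4% of all promoters. The motif TCACGTG, a form of the box bound by MiT/TFE factors such as Tfec, was found in none of the 7 windows and in 3.13% of all promoters. The shorter CACGTG within it stands in the Esx1 and C2cd4a windows, and its share over all promoters was not counted. These matches describe letters in these windows.

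**Figure D1:**
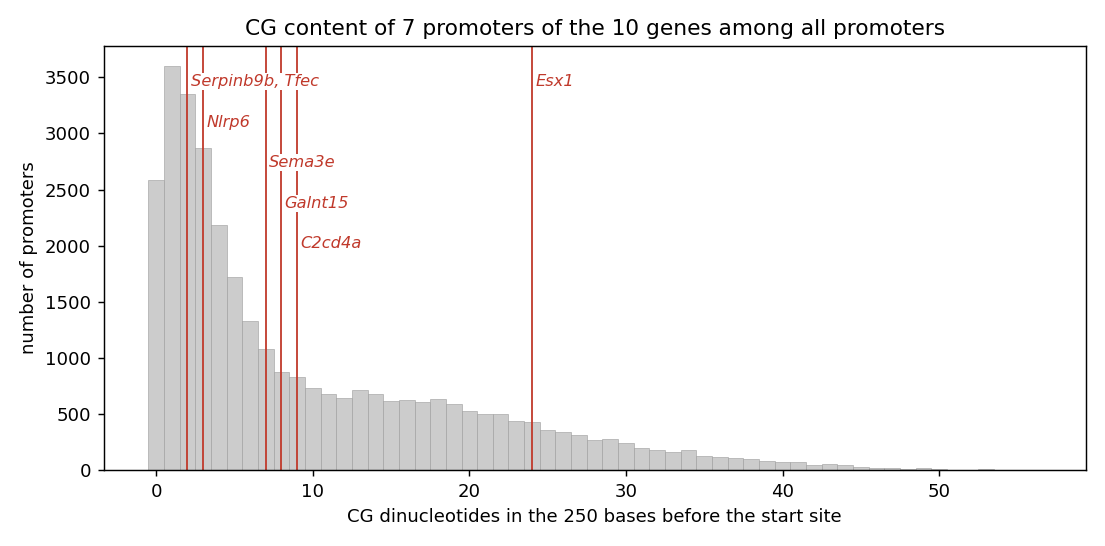
Number of RefSeq promoters (y axis) by the count of CG dinucleotides in the 250 bases before the start site (x axis), with red lines for 7 of the 10 genes. Esx1 stands at 24, and the other 6 stand between 2 and 9, on either side of the median of 6.

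Nlrp6 encodes a sensor of the NOD-like receptor family that can build an inflammasome and is known from the intestinal lining. Levels here are depth-scaled counts (CPM), computed with edgeR's TMM factors within each tissue, so levels of different tissues stand side by side without a common scale. In marrow, Nlrp6 was at 72.7 and 72.3 CPM in K36M mice (1467 and 1305 counts), at 0.172 and 0.382 CPM in K9M mice (3 and 8 counts) and at 0.375 and 0.643 CPM in WT mice (8 and 14 counts). The K36M level was 142 times that of WT and 253 times that of K9M. In intestine it was already high without the mutation: 282 and 455 CPM in K36M, 413 and 380 CPM in K9M and 294 and 243 CPM in WT. There K36M.1553 was above all K9M and WT libraries, and K36M.1485 was within their range. In testes all 6 libraries had 2 to 10 counts. Marrow of K36M mice thus stood below the 3 intestine groups and above the other 5 groups, which averaged 0.509 CPM or less.

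Hecw1 encodes a HECT ubiquitin ligase of the NEDD4 family, known from neurons. Marrow libraries had 217 and 193 counts in K36M (10.7 CPM in each), 1 and 0 counts in K9M, and 0 in both WT mice. The K36M level was at least 154-fold higher than WT, taking 3 counts over the WT group as the floor. Over K9M the ratio was 411, with a counting interval of 73.4 to 16272 (exact, 95%, counting error only). In testes Hecw1 was high in every genotype, at 57.5 and 88.8 CPM in K36M, 51.3 and 47.7 CPM in K9M and 46.8 and 44.6 CPM in WT. In intestine no library had more than 6 counts, and those 6 were in WT.1476.

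Esx1 is an X-linked homeobox gene known from placenta and male germ cells. It had 132 and 110 counts in K36M marrow (6.54 and 6.09 CPM), 2 and 0 counts in K9M marrow and 0 in both WT libraries. That is at least 90.9-fold higher than WT, and 121 times K9M with a counting interval of 33.2 to 1007. Testes held 14.3 and 11.9 CPM in K36M, 12.9 and 12.7 CPM in K9M and 12.4 and 13.9 CPM in WT, with all 3 ranges overlapping. Intestine held 12 and 9 counts in K36M, 0 and 0 in K9M and 2 and 0 in WT.

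C2cd4a encodes a C2-domain protein known from pancreatic islets. It had 374 and 294 counts in K36M marrow (18.5 and 16.3 CPM), 0 and 1 in K9M and 0 and 2 in WT. The ratio to WT was 376 with a counting interval of 104 to 3115. It was not high in any other group: none of the 12 intestine and testes libraries had more than 4 counts.

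Sema3e encodes a secreted semaphorin, a guidance cue for axons and vessels that acts through the receptor Plexin D1. Intestine libraries had 101 and 152 counts in K36M (7.53 and 9.21 CPM) and 0 in all 4 K9M and WT libraries. The K36M level was at least 104-fold higher than K9M and at least 99.8-fold higher than WT. Testes held 3.35 and 4.62 CPM in K36M, 3.78 and 3.80 CPM in K9M and 1.86 and 1.87 CPM in WT, so both mutants stood above WT and overlapped each other. Marrow had 1 to 4 counts per library.

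Ret encodes the receptor tyrosine kinase for the GDNF family of ligands, known from the enteric nervous system and from spermatogonia, where Gdnf supports stem cells. Intestine held 46.6 and 39.8 CPM in K36M (625 and 656 counts), 18 and 21 counts in K9M, and 60 and 46 counts in WT (2.91 and 3.12 CPM). The K36M level was 40.5 times K9M and 14.3 times WT, and WT stood above K9M in both mice. In testes Ret was at 3.29 and 2.40 CPM in K36M, 1.62 and 1.63 CPM in K9M and 1.62 and 1.41 CPM in WT. In marrow it was at 11 and 11 counts in K36M, 1 and 3 in K9M and 2 and 6 in WT. K36M was the highest genotype in all 3 tissues, with no overlap in any of them. Against WT alone, both K36M libraries exceeded both WT libraries for 37.3% of all tested genes in marrow, 30.6% in intestine and 39.9% in testes. The share above both other genotypes, or in all 3 tissues at once, was not counted. Ret was chosen on its intestine levels, and its marrow counts were low.

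Adrb3 encodes the beta-3 adrenergic receptor, known from fat cells. Intestine held 24.4 and 12.5 CPM in K36M (327 and 207 counts), 0 counts in both K9M libraries and 7 and 1 counts in WT. That is at least 219-fold higher than K9M and 79.0 times WT. The 12 marrow and testes libraries had at most 2 counts each.

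Tfec encodes a transcription factor of the MiT/TFE family, known from macrophages. It had 121 and 261 counts in K36M intestine (9.03 and 15.8 CPM), 1 and 3 in K9M and 0 in both WT libraries, at least 151-fold higher than WT. Marrow showed the reverse order: 20.8 and 17.3 CPM in K36M, 70.9 and 66.9 CPM in K9M and 97.1 and 78.7 CPM in WT. Of all genes tested in marrow, 24.6% were called lower in K36M than in WT. Testes had 0 to 3 counts per library.

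Serpinb9b encodes a clade B serpin, a mouse relative of Serpinb9, the inhibitor of granzyme B. Intestine held 210 and 184 CPM in K36M (2813 and 3043 counts), 0.517 and 0.171 CPM in K9M and 0.145 and 0.203 CPM in WT. The K36M level was 555 times K9M and 1155 times WT. Marrow had 16 and 24 counts in K36M, 0 and 3 in K9M and 0 and 1 in WT. Testes held 2.40 and 3.20 CPM in K36M, 3.92 and 4.43 CPM in K9M and 4.32 and 3.33 CPM in WT, with K36M lowest. Related serpins lie in the same cluster, so reads that aligned to more than 1 of them may have been left out of its count.

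Galnt15 encodes a polypeptide GalNAc transferase, an enzyme that starts mucin-type sugar chains. Testes held 25.7 and 26.9 CPM in K36M (429 and 437 counts), 29 counts in each K9M library and 25 and 47 counts in WT. The K36M level was 19.5 times K9M and 13.9 times WT. Intestine had 14 and 10 counts in K36M, 0 and 0 in K9M and 3 and 0 in WT. Marrow had at most 2 counts per library.

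**Figure D2:**
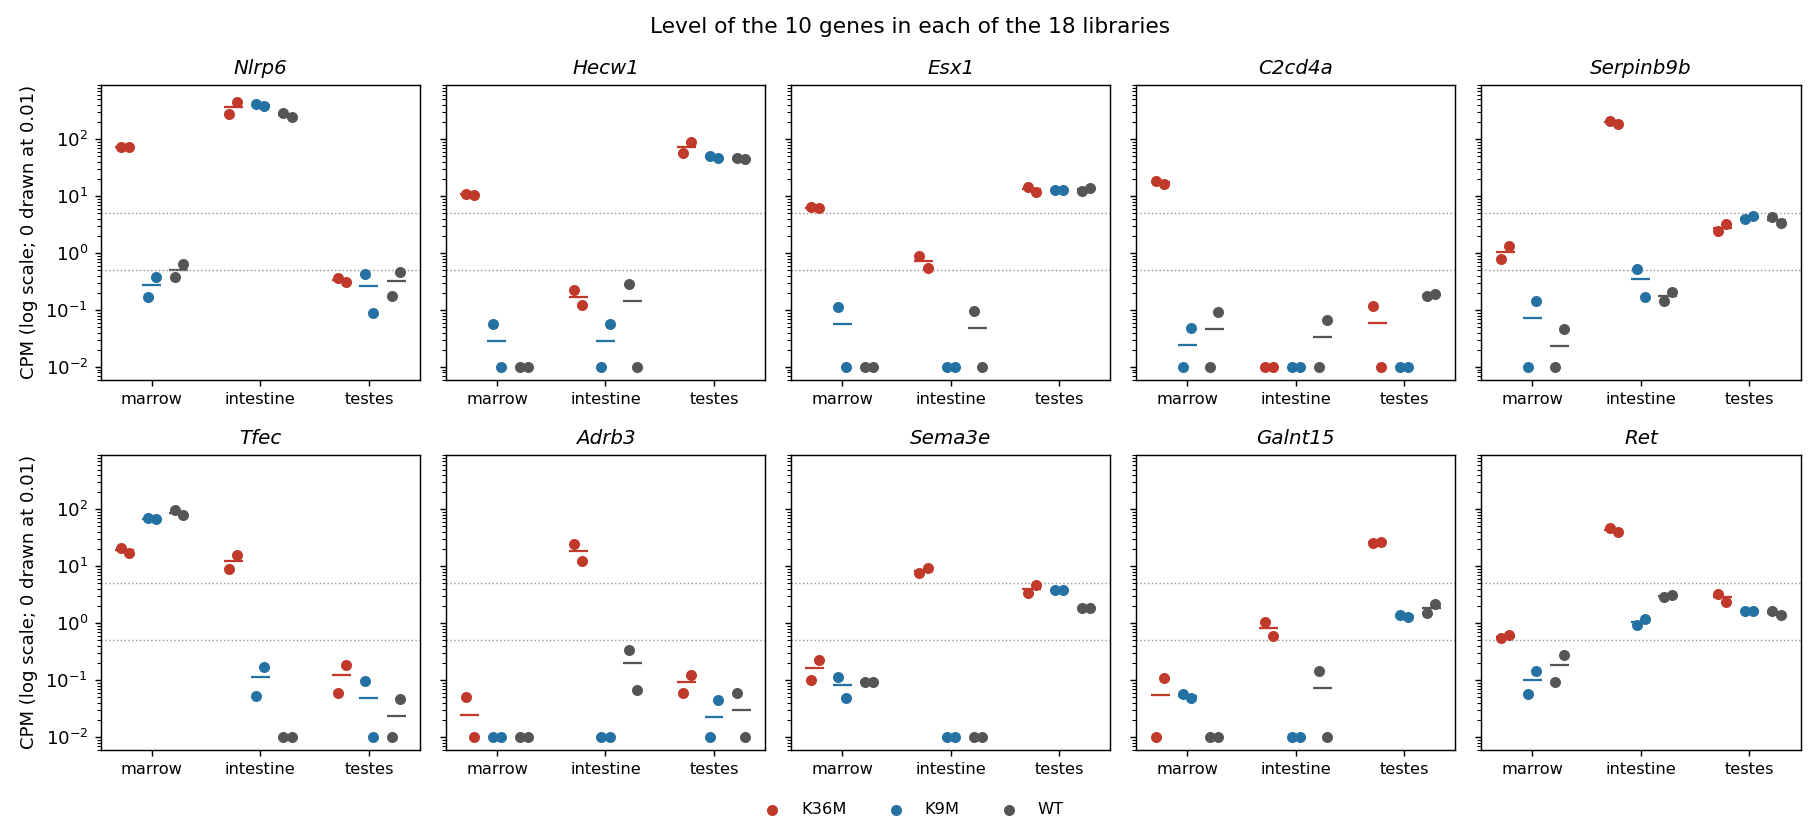
Level of each of the 10 genes (y axis, CPM on a log scale, with 0 drawn at 0.01) in all 18 libraries by tissue (x axis), with 1 point per mouse, short lines at group means, and dotted lines at 0.5 and 5 CPM. K36M points stand alone in marrow for the 4 genes from Nlrp6 to C2cd4a, in intestine for Serpinb9b, Tfec, Adrb3, Sema3e and Ret, and in testes for Galnt15.

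A numeric form of the rule asked for both WT or both K9M libraries at 0.5 CPM or less and both K36M libraries at 5 CPM or more. In that form 8 of the 10 genes met it, each in exactly 1 tissue, and Galnt15 and Ret met it in none. Galnt15 missed on 1.35 ± 0.0531 CPM in K9M testes and 1.85 ± 0.497 CPM in WT testes, and Ret on 1.07 ± 0.189 CPM in K9M intestine (SD, n = 2). Among those inside, Esx1 was nearest to the upper limit at 6.32 ± 0.314 CPM in K36M marrow, and Nlrp6 met the lower limit through K9M only.

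Outside the tissue where each gene was chosen, the differences could be tested. Of 20 such pairs of gene and tissue, 10 passed the filter on low counts. The test was edgeR's quasi-likelihood test in a fit of each tissue's 6 libraries, with Benjamini-Hochberg adjustment over all genes, and 5 of the 10 pairs passed in K36M against WT. In testes 3 genes rose and 0 fell of the 5 that could be tested, where 25.7% of all tested genes rose and 23.8% fell. In marrow 1 rose and 1 fell of 3, where 23.5% of all genes rose and 24.6% fell. In intestine 0 of 2 passed, where 23.3% of all genes changed. Galnt15 passed there at an unadjusted p below 0.05, and DESeq2 called 0 of the 2. Serpinb9b and Ret in marrow and Galnt15 in intestine passed the filter only through their K36M libraries, so their calls are a description. With so many genes called in marrow and testes, counts of 2 of 3 or 3 of 5 say little that is particular to the 10 genes.

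**Figure D3:**
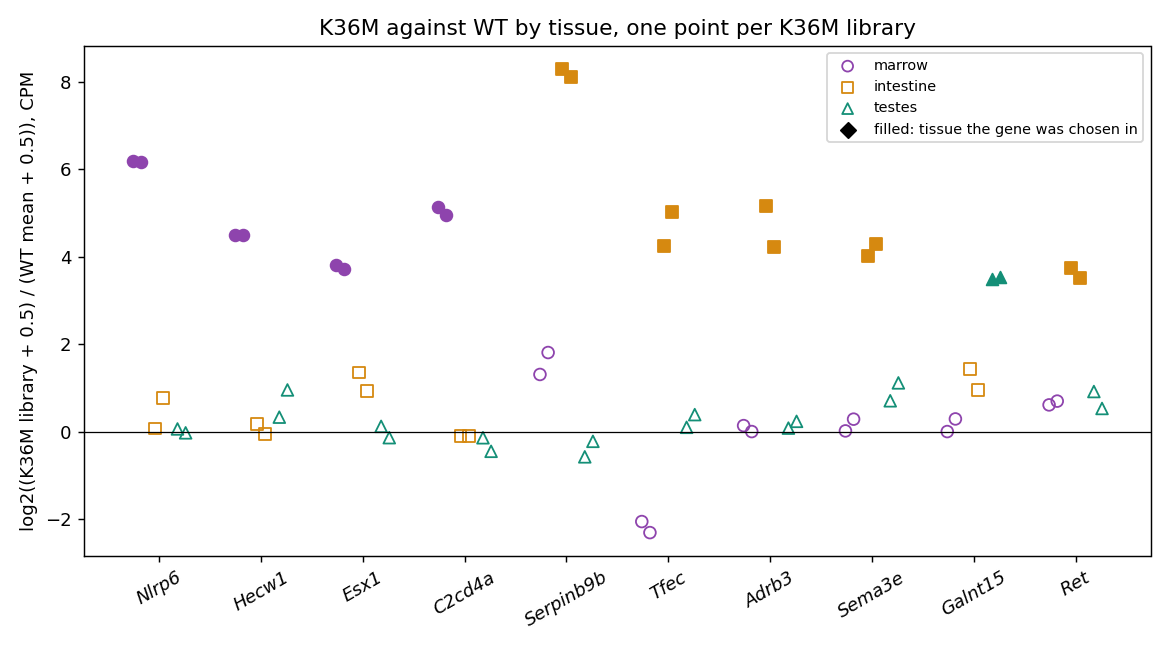
Log2 ratio of each K36M library to the WT mean, both plus 0.5 CPM (y axis), for the 10 genes (x axis) by tissue, with filled symbols for the tissue a gene was chosen in. Filled points lie above 3, whereas open points lie between -2.31 for Tfec and 1.81 for Serpinb9b, both in marrow. The filled tissue was set by its largest K36M difference, so the gap follows from the choice.

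In testes, Hecw1 rose by 0.68 ± 0.21 on the log2 scale in K36M against WT (adjusted p = 0.0317), to a mean of 73.1 ± 22.1 CPM in K36M, against 45.7 ± 1.56 CPM in WT (SD, n = 2 each). Sema3e rose by 1.09 ± 0.25 (adjusted p = 0.0124) and Ret by 0.92 ± 0.27 (adjusted p = 0.0301), both higher in 2 of 2 K36M mice than in either WT mouse. The differences of the same genes were larger in the tissue where they were chosen. That tissue was set as the one with the largest K36M difference, so this follows from the choice. Against K9M, where 25.4% of all genes rose in testes, Ret was higher by 0.81 ± 0.27 (adjusted p = 0.0422), and the difference in Sema3e was 0.07 ± 0.23 (adjusted p = 0.806). Sema3e was also higher in K9M than in WT testes, by 1.02 ± 0.24 on the log2 scale, which did not pass edgeR's test (adjusted p = 0.941). The Ret call against K9M was lost under DESeq2 (adjusted p = 0.109), without the filter on low counts (0.0640), in 1 fit of all 18 libraries (0.0577) and without 5 of the 6 libraries in turn (0.0831 to 0.181). The Hecw1 call was lost without either WT mouse (adjusted p = 0.128 and 0.156), without either K9M mouse (0.0735 and 0.0736) and in 1 fit of all 18 libraries (0.124). The Ret call against WT was lost under DESeq2 (adjusted p = 0.0723) and without 5 of the 6 libraries in turn (0.0622 to 0.171), and that of Sema3e without either WT mouse (0.0804 and 0.0819). Serpinb9b differed by -0.44 ± 0.25 and Esx1 by -0.01 ± 0.15 between K36M and WT testes, neither of which passed (adjusted p = 0.183 and 0.979 in edgeR's test).

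K36M testes also differed from WT in their mix of markers. Sertoli cell markers summed to 202 to 257 CPM in K36M and 84.8 to 88.1 CPM in WT, and Leydig cell markers to 46.1 to 64.5 CPM in K36M and 359 to 456 CPM in WT. Spermatogonial markers summed to 310 to 563 CPM in K36M and 788 to 791 CPM in WT. Of the lists' tested members, 4 of 4 Sertoli markers rose and 4 of 5 Leydig markers fell. Of 7 spermatid markers 4 rose and 1 fell, and of 6 spermatogonial markers 2 rose and 2 fell. Most of the spermatogonial sum was Ddx4, at 252 CPM in K36M and 596 CPM in WT. Etv5 of the same list averaged 54.3 CPM in K36M and 17.1 CPM in WT. The part of these markers in the levels of Hecw1, Sema3e, Ret and Galnt15 was not tested. In RNA of whole tissue or of a sorted pool, fewer cells of a type and less RNA per cell cannot be told apart.

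In marrow, Tfec fell by 2.20 ± 0.13 on the log2 scale in K36M against WT (adjusted p = 4.51e-05 in edgeR's test) and by 1.85 ± 0.13 against K9M (5.47e-05). Serpinb9b rose by 5.17 ± 1.04 against WT (adjusted p = 0.00473) and by 3.66 ± 0.88 against K9M (0.00884), to 1.06 ± 0.380 CPM in K36M, against 0.0717 ± 0.101 CPM in K9M and 0.0230 ± 0.0325 CPM in WT. Its rise over WT corresponds to 40 counts in K36M against 1 in WT, a ratio of 45.1 with a counting interval of 7.64 to 1825. The gene passed the filter in marrow only through its K36M libraries, so this call describes those counts and supports nothing further. Its call against K9M was lost without K9M.1362 (adjusted p = 0.0549) or K36M.1312 (0.0729). Ret rose by 2.40 ± 0.75 against K9M (adjusted p = 0.0269), a call lost under DESeq2 (0.114) and without either K36M or either K9M mouse (0.0848 to 0.154). Against WT its difference of 1.60 ± 0.66 did not pass (adjusted p = 0.0787). Ret too passed the filter in marrow only through K36M, with 11 counts in each K36M library and at most 6 in any other. Against K9M, 26% of all marrow genes rose and 27.8% fell.

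Macrophage markers in marrow summed to 175 to 203 CPM in K36M, 540 to 565 CPM in K9M and 415 to 582 CPM in WT, and 5 of 9 tested fell. All 8 granulocyte and monocyte progenitor markers fell, with sums of 3548 to 4817 CPM in K36M, 16048 to 16564 CPM in K9M and 14727 to 18699 CPM in WT. Erythroid markers summed to 1522 to 1576 CPM in K36M, 367 to 390 CPM in K9M and 447 to 640 CPM in WT, and 6 of 7 rose. Stromal cells would be removed by the sort. Their markers summed to 26.5 to 37.4 CPM in K36M, 2.99 to 3.35 CPM in K9M and up to 5.51 CPM in WT. Nearly all of the sum in K36M was Col1a2 at 24.4 CPM and Col1a1 at 7.55 CPM, which averaged 3.86 and 0.393 CPM in WT. Col3a1 averaged 0.0248 CPM in K36M, and Pdgfra, Dcn and Lum were at 0 there. The part of these shifts in the fall of Tfec, or in the levels of the other genes, was not tested.

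In intestine, Galnt15 was higher in K36M than in K9M, 24 counts against 0, at least 9.86-fold (adjusted p = 0.0323 in edgeR's test, where 12.2% of all genes rose). That call was lost without either K9M mouse (0.171 and 0.176) or K36M.1553 (0.0612). Galnt15 passed the filter in intestine only through K36M, so the call is a description. Against WT the counts were 24 and 3, a ratio of 9.47 with a counting interval of 2.88 to 49.1 (adjusted p = 0.086). This became a call without the filter on low counts (0.0487) and in 1 fit of all 18 libraries (0.0141). Nlrp6 differed by 0.46 ± 0.25 between K36M and WT intestine (adjusted p = 0.233) and by -0.10 ± 0.25 between K36M and K9M (0.786). Without K36M.1485 its difference from WT was 0.77 (adjusted p = 0.0398).

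In K9M mice no change of these genes passed the test. Across the 10 pairs of gene and tissue that could be tested, edgeR called 0 in K9M against WT, as did DESeq2, and 2 had an unadjusted p below 0.05. These were Tfec in marrow and Sema3e in testes. Of all genes, 1.01% were called in marrow, 0.211% in intestine and 0.0678% in testes.

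Whether the K36M effect itself differed between tissues was tested as an interaction, for pairs of tissues in which a gene had not been chosen. Of 8 such differences, 3 passed. The effect on Serpinb9b in marrow exceeded that in testes by 5.63 ± 0.94 on the log2 scale (adjusted p = 0.00111), where 35.3% of all genes differed. Its marrow side rests on 40 counts in K36M and 1 in WT, so the size is poorly known. The effect on Tfec in marrow was lower than in testes by a log2 difference of -4.14 ± 1.30 (0.0294), although testes had only 4 counts in K36M and 1 in WT. That call was lost without testes of WT.1476 (0.0796), without testes of K36M.1553 (0.329) and with all 18 libraries in 1 fit (0.0545). The effect on Esx1 in intestine exceeded that in testes by 3.50 ± 0.79 (adjusted p = 0.0136), where 22.5% of all genes differed. With the mouse as a block, since the same mice gave both tissues, the Esx1 difference was 3.49 ± 0.97 and no longer passed (adjusted p = 0.0604). Without the intestine library of WT.1476, which carried the testis transcripts, WT intestine had 0 counts of Esx1, and no size is given for that fit. The differences in Hecw1 (-0.74, adjusted p = 0.696), Nlrp6 (0.43, 0.753), Galnt15 (marrow minus intestine, where 21.1% of all genes differed, -0.42, 0.762), Ret (0.74, 0.417) and Sema3e (-0.32, 0.947) did not pass edgeR's test.

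Applied to all 37620 gene IDs, the numeric form of the rule was met by 25 genes in marrow (0.0665%), 65 in intestine (0.173%) and 2 in testes (0.00532%). Its mirror image, near silent in K36M and high in WT or K9M, was met by 16 genes in marrow, 12 in intestine and 6 in testes. Of the genes that met the form itself, 9 in marrow, 33 in intestine and 0 in testes were near silent in both WT and K9M. The others were near silent in only 1 of the 2 genotypes, such as Wdr72, at 16.9 CPM in WT intestine and 0 in K9M. None of the 25 marrow genes was among the 65 intestine genes or the 2 testes genes. With lists so short among 37620 IDs, that says little about sharing between tissues. The limit of 5 CPM also leaves out smaller rises. The intestine and testes lists shared 1 gene, 1.54% of the intestine list and 50% of the testes list. That ID has no symbol in the tables used here, and its counts split mice of the same group, with 20 and 1036 in K36M marrow, 9 and 157 in WT intestine and 3 and 141 in WT testes.

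Some of the genes that met the numeric form in a tissue were active without the mutation in another. Of the 25 marrow genes, 36% were at 5 CPM or more in WT intestine and 44% in WT testes, against 2.93% and 9.80% of all genes near silent in WT marrow. Of the 65 intestine genes, 23.1% were at that level in WT marrow and 29.2% in WT testes, against 2.07% and 7.70% of all genes near silent in WT intestine. Nlrp6 in intestine, Hecw1 and Esx1 in testes and Tfec in marrow belong to these. The comparison was not tested, and the lists were set by 5 CPM in K36M, which the background genes were not. The lists also held genes near silent in K9M alone, such as Nlrp6 in marrow, whereas the background held only genes near silent in WT.

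In the other tissues few genes of these lists could be followed with a test. Of the 25 marrow genes, 14 passed the filter in intestine, where 5 rose and 0 fell (median log2 0.80, against -0.02 over all genes), and 22 passed in testes, where 10 rose and 2 fell (0.54, against 0.02). Of the 65 intestine genes, 37 passed in marrow, where 11 rose and 11 fell (0.33, against -0.02), and 50 passed in testes, where 12 rose and 9 fell (0.15, against 0.02). The shares that rose and fell in K36M were 11.7% and 11.7% of all genes tested in intestine, 25.7% and 23.8% in testes, and 23.5% and 24.6% in marrow. A gene can pass the filter through the genotype in which it is high, so these counts describe the lists and support no direction.

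Genes next to the 10 were looked up in annotation order, the nearest protein-coding gene on each side. Of these 20 neighbours, 14 passed the filter, and in the tissue of the chosen gene 7 rose, 2 fell and 5 did not pass in K36M against WT. By tissue, 3 rose and 2 fell of 5 in marrow, where 23.5% of all tested genes rose and 24.6% fell. In intestine 3 rose and 0 fell of 7, where 11.7% rose and 11.7% fell, and in testes 1 rose of 2, where 25.7% rose. These counts are few beside such shares, and nothing is drawn from them. The largest rises were beside 3 of the genes. Serpinb9, the granzyme B inhibitor next to Serpinb9b, rose by 3.42 ± 0.25 in intestine (adjusted p = 0.00133), to 32.1 ± 3.68 CPM in K36M, against 2.97 ± 0.461 CPM in WT. Eif4ebp1, a repressor of cap-dependent translation next to Adrb3, rose by 2.85 ± 0.29 in intestine (0.00274), to 38.8 ± 7.62 CPM in K36M, against 5.37 CPM in WT. Vps13c, a lipid transfer protein next to C2cd4a, rose by 1.70 ± 0.15 in marrow (0.00037), to 582 ± 70.7 CPM in K36M, against 179 CPM in WT. C2cd4b, the paralog on the other side of C2cd4a, had 1 count in K36M marrow and 0 in WT. The other called neighbours moved by less: Bms1 beside Ret by 0.76, Ankrd28 beside Galnt15 by 0.44, Mrpl32 and Arid4b beside Hecw1 by 0.41 and 0.33, Pgghg beside Nlrp6 by -0.33 and Fam199x beside Esx1 by -0.36.

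**Figure D4:**
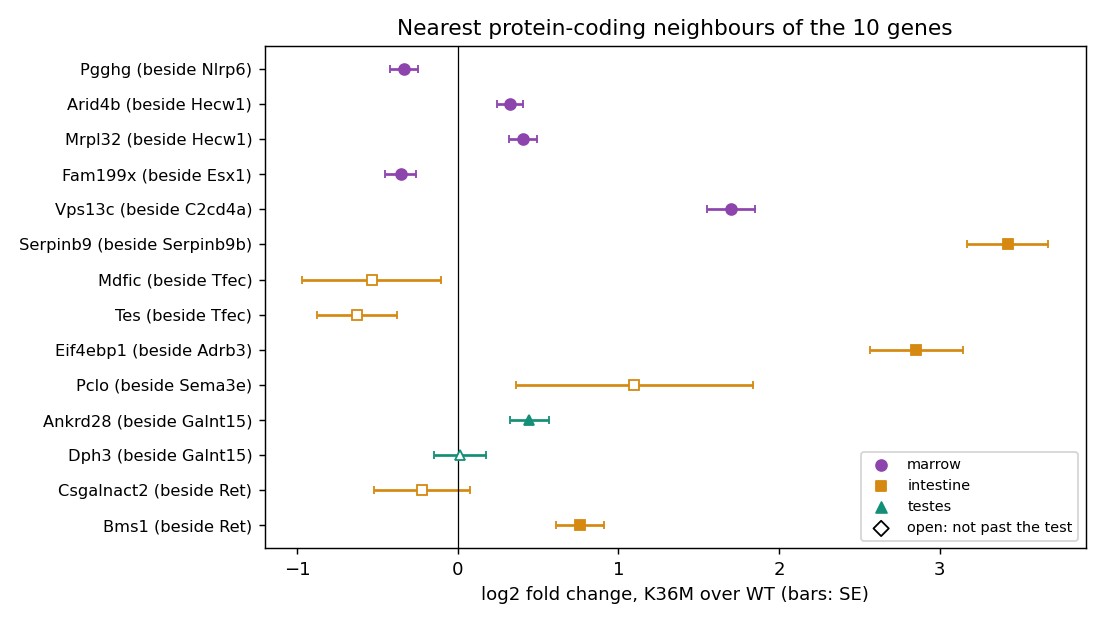
Log2 fold change of K36M over WT with its standard error (x axis) for the 14 tested neighbours of the 10 genes (y axis), in the tissue where the adjacent gene was chosen, with open symbols for those that did not pass. Serpinb9, Eif4ebp1 and Vps13c stand apart at 3.42, 2.85 and 1.70, and the other 11 lie between -0.63 and 1.10.

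Relatives of each gene were counted from lists written from general knowledge, in K36M against WT with edgeR's test. Each count is to be read against the shares of all tested genes, of which 23.5% rose and 24.6% fell in marrow, 11.7% rose and 11.7% fell in intestine, and 25.7% rose and 23.8% fell in testes. No list was tested as a set. Genes low in WT, such as Il1b and Adra2a in marrow and Sema3f and Hecw2 in intestine, can pass the filter through another genotype. Their calls, and their part in the counts below, are a description. For Nlrp6 the list was the inflammasome. In marrow, where Nlrp6 came on, 10 of 16 tested inflammasome genes fell and 1 rose (median log2 -0.79, against -0.02 over all genes). Pycard, the adaptor that links sensors to caspase 1, fell by 1.72 ± 0.15 (adjusted p = 0.000153), to 14.8 ± 2.56 CPM in K36M, against 49.0 ± 7.78 CPM in WT, and Casp1, Il18 and Gsdmd fell too. Il1b, an inflammasome cytokine, rose by 2.73 ± 0.34 (0.000584), to 2.81 CPM in K36M, against 0.418 CPM in WT. The granulocyte and monocyte markers given above fell in the same libraries, and their part in this was not tested. In intestine 2 of 14 rose and 4 fell, among them the Nlrc4 partners Naip2 (-1.15 ± 0.14, adjusted p = 0.00451) and Naip5 (-1.25 ± 0.25, 0.0177). In testes 2 of 12 rose and 2 fell, with Gsdmd, the pore-forming protein, higher by 1.57 ± 0.19 (0.00275) and Nlrp9b lower (-1.77 ± 0.40, 0.0123).

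For Ret, the list held its ligands, co-receptors, adaptors and target genes. In intestine 1 of 13 tested genes rose and 0 fell. It was the ligand Nrtn, which rose by 3.67 ± 0.58 (adjusted p = 0.0089), to 6.96 ± 0.497 CPM in K36M, against 0.523 ± 0.357 CPM in WT. Nrtn also rose in marrow, by 2.75 ± 0.40 (0.00116), among 7 of 14 that rose there and 2 that fell, with the adaptor Shc1 higher by 0.65 ± 0.07 (0.000264). In testes 5 of 16 rose and 2 fell, including the targets Etv5 (1.67 ± 0.16, 0.00241) and Spry4 (1.90 ± 0.23, 0.00275). Enteric neuron and glia markers summed to 10.8 to 11.6 CPM in K36M intestine, 2.74 to 3.03 CPM in K9M and 2.37 to 3.34 CPM in WT. Most of that sum in K36M was S100b, at 7.15 CPM in K36M, 0.456 CPM in K9M and 0.116 CPM in WT. Snap25 averaged 2.42 CPM in K36M, 1.28 CPM in K9M and 1.09 CPM in WT, and Sox10 averaged 0.0373 CPM in K36M and 0 in the other genotypes. The part of these markers in the intestinal Ret level was not tested.

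For Sema3e, the list held class 3 semaphorins with their plexin and neuropilin receptors. In intestine 3 of 12 rose and 0 fell: Plxnd1, which encodes the Sema3e receptor, Plxnb1 (2.41 ± 0.58, adjusted p = 0.0297) and Sema3f (3.89 ± 0.74, 0.015). Stromal markers summed to 8.73 to 41.5 CPM in K36M intestine, 2.17 to 3.08 CPM in K9M and 0.406 to 5.47 CPM in WT, and 1 of 5 tested rose. Pdgfra averaged 10.7 CPM in K36M, 0.186 CPM in K9M and 0.325 CPM in WT, and Lum was at 0 in K36M and K9M. The part of these markers in the intestinal Sema3e level was not tested. In marrow 4 of 13 rose and 5 fell, with the receptor Plxna2 higher by 2.89 ± 0.27 (0.000191) and Nrp1 lower (-6.01 ± 0.41, 0.000189). Nrp1 was at 0.646 ± 0.208 CPM in K36M marrow, against 42.5 ± 16.4 CPM in WT. In testes 5 of 14 rose and 1 fell, with Plxna1 higher (1.22 ± 0.18, 0.00394) and Plxna2 lower (-1.76 ± 0.30, 0.00617).

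For Adrb3, 0 of the 2 adrenergic receptor genes tested in intestine passed (K36M against WT, edgeR). Adipocyte markers summed to 404 to 500 CPM in K36M intestine, 143 to 164 CPM in K9M and 107 to 154 CPM in WT, and 2 of 2 tested rose. Nearly all of the sum was Cidec, a lipid droplet protein at 444 CPM in K36M, 153 CPM in K9M and 130 CPM in WT. Fabp4, a fatty acid carrier of fat cells, averaged 7.33 CPM in K36M, 0.612 CPM in K9M and 0.0242 CPM in WT, and the lipid droplet protein Plin1 averaged 0.277 CPM in K36M, 0 in K9M and 0.0242 CPM in WT. Lep and Retn were at 0 in every intestine library and Adipoq averaged 0.0303 CPM in K36M. The part of these markers in the Adrb3 level was not tested. In marrow Adra2a rose (adjusted p = 0.00384), to 0.901 CPM in K36M, against 0.0230 CPM in WT, a call that is only a description at that WT level. In testes Adra1b rose (1.16 ± 0.30, 0.0198) and Adrb1 fell (-1.98 ± 0.42, 0.0101) of 4.

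For Tfec, its relatives Mitf, Tfe3 and Tfeb were counted. In intestine 0 of the 2 tested passed in edgeR's test. In marrow, where Tfec fell, Mitf fell as well (-1.48 ± 0.19, adjusted p = 0.000696) and Tfe3 rose (0.75 ± 0.09, 0.000577). In testes all 3 rose, with Tfeb at 1.48 ± 0.22 (0.00419) and Tfe3 at 1.04 ± 0.21 (0.0091). Macrophage markers in intestine summed to 16.1 to 40.4 CPM in K36M, 10.2 to 11.5 CPM in K9M and 6.77 to 9.06 CPM in WT, and 2 of 8 tested rose. Their part in the intestinal Tfec level was not tested.

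For Serpinb9b, 2 of 5 tested clade B serpins rose in intestine, Serpinb9 as above and Serpinb6b (1.90 ± 0.45, adjusted p = 0.0288), and 0 fell. Serpinb6b rose in marrow too (1.49 ± 0.17, 0.000384), where Serpinb10 fell (-2.13 ± 0.23, 0.000309) of 6 tested. In testes Serpinb7 rose of 8 tested (1.49 ± 0.51, 0.0484). Mast cell and basophil markers, whose cells carry serine proteases, summed to 63.3 to 144 CPM in K36M intestine, 4.34 to 8.02 CPM in K9M and 4.70 to 4.95 CPM in WT, nearly all from Hdc at 103 CPM in K36M. Il1rl1 averaged 0.869 CPM in K36M, 0.0803 CPM in K9M and 0.0727 CPM in WT, and Cpa3 and Fcer1a were at 0 in K36M intestine. The part of these markers in the Serpinb9b level was not tested.

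For Hecw1, 1 of 7 tested ligases of the NEDD4 family rose in marrow and 4 fell, with Nedd4l (-0.98 ± 0.10, adjusted p = 0.000264) and Smurf2 (-0.80 ± 0.10, 0.000467) lower. In intestine 1 of 8 rose, the close paralog Hecw2 (3.38 ± 0.68, 0.0178), and 2 fell, among them Nedd4l (-0.88 ± 0.18, 0.0182). Hecw2 was at 3.44 ± 1.35 CPM in K36M intestine, against 0.334 ± 0.198 CPM in WT. In testes 3 of 8 rose and 1 fell, with Nedd4 (0.79 ± 0.16, 0.00851) and Wwp2 (1.03 ± 0.21, 0.00886) higher.

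For Galnt15, 2 of 14 tested GalNAc transferases rose in testes and 3 fell, with Galnt1 higher (1.11 ± 0.15, adjusted p = 0.00325) and Galnt10 lower (-1.23 ± 0.21, 0.00573). In marrow 1 of 10 rose and 6 fell, with Galnt11 (-1.84 ± 0.18, 0.000199) and Galnt4 (-1.03 ± 0.10, 0.000225) lower. In intestine 1 of 10 rose, Galnt3 (1.44 ± 0.21, 0.00686), and 3 fell, with Galnt10 lower (-1.19 ± 0.18, 0.00826). Goblet cell markers, of the cells that make mucins, fell in 6 of 6 cases in intestine, with sums of 978 to 1354 CPM in K36M, 4946 to 5507 CPM in K9M and 10586 to 12657 CPM in WT. The relatives of Esx1 and C2cd4a were mostly too low to test. No X-linked homeobox gene of the Rhox group passed the filter in marrow or intestine, and Rhox8 rose in testes (1.54 ± 0.23, adjusted p = 0.00402) of 4 tested. No C2cd4 relative passed the filter in marrow, and C2cd4b fell in testes (-1.79 ± 0.25, 0.00347).

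Likeness was measured as Pearson's r of log2(CPM + 1) over the 18 libraries, among 16060 genes with a mean of at least 1 CPM in some group. The libraries fall into 3 tissues, so r largely reflects the tissue pattern for genes that were active in another tissue. C2cd4a, Adrb3, Serpinb9b, Ret and Galnt15 were by far highest in the K36M libraries they were chosen on. For these, r mostly reflects those libraries, so the pattern of the genes most like them follows from the choice. The 2 genes most like Nlrp6 were Cda, a cytidine deaminase (r = 0.992), and Cth, an enzyme of cysteine synthesis (0.987). Both were high in intestine of every genotype and in K36M marrow. Cda averaged 30.2 CPM in K36M marrow, 0.139 CPM in K9M and 0.115 CPM in WT. Hecw1 was most like Tmod1 (0.996) and Rps6ka6 (0.990), which were high in testes and in K36M marrow. Esx1 was most like Elavl2 (0.994) and Hecw1 itself (0.986).

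C2cd4a was most like Btn1a1 (0.977), a milk fat protein at 10.7 CPM in K36M marrow, 0.139 CPM in K9M and 0.577 CPM in WT, and like Apol11b (0.975). Among genes chosen in intestine, Adrb3 was most like Cyp8b1, an enzyme of bile acid synthesis (0.996), and Acot5, an acyl-CoA thioesterase (0.996). Acot5 was at 7.40 CPM in K36M intestine, 0.0830 CPM in K9M and 0 in WT. Serpinb9b was most like Sec14l4 (0.978) and Popdc3 (0.976), and Sema3e most like Tmprss11f (0.970) and Mpp3 (0.968). Ret was most like Rnf39 (0.978) and Chrna2, a nicotinic receptor subunit (0.975) at 153 CPM in K36M intestine, 2.45 CPM in K9M and 2.24 CPM in WT. Tfec was most like Jdp2 (0.988) and Ankrd13b (0.981), which were also lower in K36M marrow and higher in K36M intestine by group means. Galnt15 was most like Ampd1 (0.983) and Serpina3n (0.976), the last at 29.7 CPM in K36M testes, 3.23 CPM in K9M and 2.11 CPM in WT.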

How the data were processed

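RNA-seq of polyadenylated RNA was deposited as raw counts of reads in each gene. The authors' tools were STAR and HTSeq and their build mm9, per the submitters' processing notes, and the libraries were SMARTer v3, per the labels' protocols. Versions and strand setting are not given in the sources used here, so overlapping and antisense genes cannot be told apart. Entries that name no gene stayed out of the fits: 9.89% to 26.0% of all entries were reads in no feature, 15.3% to 29.1% reads without a unique alignment and 2.21% to 4.17% ambiguous reads. Symbols and gene order came by ID from a GENCODE annotation of GRCm38, which named 32897 of 37620 IDs.

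Each tissue's 6 libraries were fitted in R 4.3.3 with edgeR 4.0.16 (TMM, filterByExpr, robust quasi-likelihood, 3 residual degrees of freedom), adjusted by Benjamini-Hochberg over all genes at 0.05. Interactions used the 12 libraries of 2 tissues. Deviations of the mice shared by intestine and testes correlated at -0.0394 in K36M, 0.0921 in K9M and 0.045 in WT, and the mouse was a block in an alternative. Alternatives were DESeq2 1.42.0, RLE scaling, no filter, 1 fit of all 18 libraries, each library left out, and other CPM limits. A fit without a library assumed that the remaining mouse of that group varied like those of other groups. P-values measure the spread between mice, with 2 per group. The fits were tested on simulated data.

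The 10 genes, the family and marker lists and the tests were chosen with earlier results of these data known. Named genes were the 10, the 2 of smallest adjusted p in each family list with a call, the nearest protein-coding gene on each side and the 2 most alike by Pearson's r. Plxnd1, Casp1, Il18 and Gsdmd in marrow, and the single gene shared by 2 tissue lists, were named after their values were seen. Some genes that this rule or the lists name are not reported here.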

Additional observations from a re-analysis of the deposited data

Results flagged for a closer look

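The K36M effect on Serpinb9b differed between marrow and testes, by 5.63 ± 0.94 on the log2 scale (edgeR interaction, adjusted p = 0.00111). Marrow had only 40 counts of Serpinb9b in K36M and 1 in WT. The K36M effect on Esx1 differed between intestine and testes, by 3.50 ± 0.79 (adjusted p = 0.0136), a call lost with the mouse as a block (0.0604). The K36M effect on Tfec differed between marrow and testes, by -4.14 ± 1.30 (adjusted p = 0.0294), with testes at 0 to 3 counts per library.

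Serpinb9b was at 2.40 and 3.20 CPM in K36M testes, below 4.32 and 3.33 CPM in WT testes, whereas each K36M intestine library was above both WT libraries. The testes difference of -0.44 ± 0.25 on the log2 scale did not pass edgeR's test (adjusted p = 0.183). Tfec differed by -2.20 on the log2 scale in K36M marrow against WT, whereas each K36M intestine library was above both WT libraries. The differences of these genes between the tissue pairs in this paragraph were not tested, since the genes were chosen on their intestine levels.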

How the results depend on the processing

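Counts of genes called moved by over 1.5 times under some alternatives. K9M against WT gave 147 genes in marrow (352 with DESeq2, 463 without the filter), 30 in intestine (372 with DESeq2, 1180 without the filter, 453 with all 18 libraries in 1 fit) and 13 in testes (46 with DESeq2, 37 without the filter). The fit of all 18 libraries called 3635 genes in marrow for K36M against WT (7017 in the fit of marrow alone) and 4488 against K9M (7850), and in intestine 5911 against WT (3323) and 6091 against K9M (3570). With the mouse as a block, the replicate block gave 2968 genes whose K36M effect differed between intestine and testes, against 4553 without, and of the 3 genes tested there it changed only the Esx1 call.

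Leaving out each library in turn gave, for K36M against WT, 4671 to 6861 genes (marrow), 881 to 3775 (intestine) and 2310 to 12930 (testes). For K36M against K9M it gave 5432 to 8403, 620 to 3972 and 0 to 12900, with 0 in testes without K9M.1516. In K36M against WT the counts moved most without a WT library, to 1008 (WT.1476) and 881 (WT.1477) in intestine and to 2310 (WT.1476) and 2498 (WT.1477) in testes. Without a K9M library they were 1853 and 1790 in intestine, and in marrow 4671 without K36M.1312. For K9M against WT it gave 28 to 619, 0 to 141 and 0 to 247. Interactions ranged over 2206 to 5407 (intestine minus testes), 2016 to 4884 (marrow minus intestine) and 5625 to 9001 (marrow minus testes) genes.

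The counts of genes that met the numeric form depended on the limits. At 0.25 and 10 CPM they were 9 in marrow, 18 in intestine and 0 in testes, with mirror counts of 3, 0 and 1. At 1 and 5 CPM they were 54, 117 and 6, with mirror counts of 41, 23 and 13. With CPM by library size alone the testes count was 1.

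Signs turned in leave-one-out fits only for differences that had not passed: Nlrp6 in K36M against K9M intestine (-0.52 to 0.20), Esx1 in testes (-0.19 to 0.10 against WT, -0.14 to 0.15 against K9M), Sema3e in K36M against K9M testes (-0.19 to 0.25), and the interactions of Hecw1 (-1.67 to 4.15), Nlrp6 (-0.46 to 0.91), Galnt15 (-4.54 to 0.53) and Sema3e (-0.93 to 0.16). The ends at 4.15 and -4.54 come from fits without WT.1476 in intestine, which leave WT intestine at 0 counts of the gene, so they give no size. Genes with 0 to 3 counts in a group could not be placed by these depths. The causes were not tested.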
